A study of Mus musculus with 11 samples.

Results

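The expression of 33 marker genes of the glial lineages was examined in granule cell precursors (GCps) isolated from the cerebellum of mice at postnatal day 7 (P7). The genes were listed by name as known markers, without a threshold on their values, although earlier results of these data were known when the list was made: 20 marked astrocytes and Bergmann glia and 13 marked the oligodendrocyte lineage, out of 38924 genes listed in each count file. RNA-seq libraries from 2 cko preparations were set against those from 2 control preparations, all on the C57Bl/6J background. The cko pups carried Math1cre;Chd7flox/flox. The sample labels gave the controls as Chd7flox/+, whereas the notes on RNA extraction described controls with both alleles floxed and no Cre, so all libraries carried at least 1 floxed Chd7 allele. Cerebella of each genotype were pooled after lobules IX and X were cut away, and GCps were enriched on a Percoll gradient. No source stated whether the 2 libraries of a genotype came from separate pools, so a p-value here covers no more than the variation from library to library. The sex-linked genes given below show that the 2 cko libraries held different animals; for the 2 controls the spread may be technical. ATAC-seq and H3K4me1 samples of the series were not analysed here.

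Astrocytes take up glutamate and potassium and buffer water and pH, and Bergmann glia are the cerebellar astrocytes whose radial fibres guide granule neurons as these migrate inward. Oligodendrocyte precursors pass through a committed stage before they wrap axons in myelin, which in the mouse cerebellum begins in the first weeks after birth. Math1-Cre acts in the granule cell lineage and not in glia. Glial RNA in a GCp preparation can come from glia that are carried along and, for genes such as Vim and Fabp7, from neural progenitors that share them with glia. In bulk RNA, fewer glia and less RNA per glial cell cannot be told apart.

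The libraries held 73480074 and 62437759 counted reads in the cko and 77346481 and 61836588 in the control, so that 60.3 to 77.1 reads stood for 1 CPM, the count scaled to a library size of 1000000. Granule lineage genes were abundant, among them Zic1, which had 1485 and 1652 CPM in the cko and 1707 and 1702 CPM in the control. Gabra6, which marks mature granule neurons, was at most 0.104 CPM in any library. The first cko library stood apart in sex-linked genes: Xist had 793 and 0.114 CPM in the cko and 0.548 and 0.182 CPM in the control. The Y-linked gene Ddx3y was not counted in that library and had 68.2 CPM in the second, while the controls had 69.1 and 63.7 CPM. Values without cko replicate 1 are given for some of the results that moved when it was left out. Chd7 itself had 392 and 355 CPM in the cko and 322 and 319 CPM in the control. Reads summed over a whole gene do not show whether the floxed part is lost, so this value does not check the genotype.

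To show the upstream sequence of genes described below, RefSeq windows of 250 bases before to 50 bases after each transcription start (GRCm38.p6) were searched on both strands for the SOX motif ACAAAG, the NFI motif TTGGC and the E-box CANNTG. Of the 33 genes, 26 had a window in the table, with 34 windows in all. ACAAAG occurred in 36.4% of the 11 windows of oligodendrocyte lineage genes and in 4.35% of the 23 windows of astrocyte and Bergmann glia genes, against 18.7% of 32851 windows in the table. The 4 oligodendrocyte lineage windows with a match belonged to Cnp, Mobp and Mag. The Mag windows with a match overlap each other, so the windows are not independent. TTGGC occurred in 45.5% of the oligodendrocyte lineage windows and 60.9% of the astrocyte and Bergmann glia windows, against 46.7% of the table. The E-box occurred in 63.6% of the oligodendrocyte lineage windows and 69.6% of the astrocyte and Bergmann glia windows, against 72.3% of the table. Shown are the bases of the window that lie before the start and before the first GENCODE exon, which leaves 208 of the 250 for Fabp7 and 215 for Mobp, for Fabp7 (chr10:57784673-57784880), a radial glia gene that was lower in both cko libraries, and for Cldn11 (chr3:31149670-31149919) and Mobp (chr9:120149492-120149706), 2 myelin genes that were higher in both, all on the plus strand. Capitals mark matches to ACAAAG or TTGGC on either strand, and they overlap at 1 place in Mobp.
Fabp7: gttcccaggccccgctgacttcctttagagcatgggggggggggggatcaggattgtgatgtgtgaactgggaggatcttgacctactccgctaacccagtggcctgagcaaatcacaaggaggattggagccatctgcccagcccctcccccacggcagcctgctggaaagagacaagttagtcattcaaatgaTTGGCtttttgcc
Cldn11: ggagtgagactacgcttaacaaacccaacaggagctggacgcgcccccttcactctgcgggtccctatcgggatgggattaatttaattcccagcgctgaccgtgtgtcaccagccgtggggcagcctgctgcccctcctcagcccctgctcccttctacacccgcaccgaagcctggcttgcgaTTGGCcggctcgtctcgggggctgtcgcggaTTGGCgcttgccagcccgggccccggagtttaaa
Mobp: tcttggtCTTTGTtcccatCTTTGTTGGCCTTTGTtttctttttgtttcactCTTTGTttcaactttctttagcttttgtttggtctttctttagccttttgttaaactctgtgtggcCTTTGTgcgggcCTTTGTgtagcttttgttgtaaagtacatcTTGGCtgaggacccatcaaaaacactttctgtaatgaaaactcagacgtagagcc
The Mobp window held 6 copies of ACAAAG, and it was the only 1 of the 32851 windows with that many. A match describes letters and not a bound site.

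All 33 genes passed the filter on low counts. Per length, the glial genes ran over a wide range: in CPM per kilobase of exon (RPKM, mean of the 4 libraries), Apoe, a lipid carrier that macrophages also make, was highest at 151, followed by Sparcl1 at 131, Fabp7 at 115 and Vim at 78.5. The gap junction gene Gjb6 was lowest among the astrocyte and Bergmann glia genes at 0.259. Among the oligodendrocyte lineage genes, Mbp was highest at 16.8 and Pdgfra was next at 14.3, while Myrf at 0.292 and Enpp6 at 0.314 were lowest. Summed over the 20 astrocyte and Bergmann glia genes, the level was 709 and 627 RPKM in the cko, against 767 and 720 RPKM in the control. Summed over the 13 oligodendrocyte lineage genes, it was 71.7 and 75.9 RPKM in the cko, against 71.5 and 63.6 RPKM in the control. Both cko sums lay below both control sums for the astrocyte and Bergmann glia genes, and above them for the oligodendrocyte lineage genes, with only 71.7 against 71.5 RPKM at the nearest pair. Summed in CPM, the oligodendrocyte lineage genes overlapped, at 431 and 453 CPM in the cko and 432 and 403 CPM in the control.

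**Figure D1:**
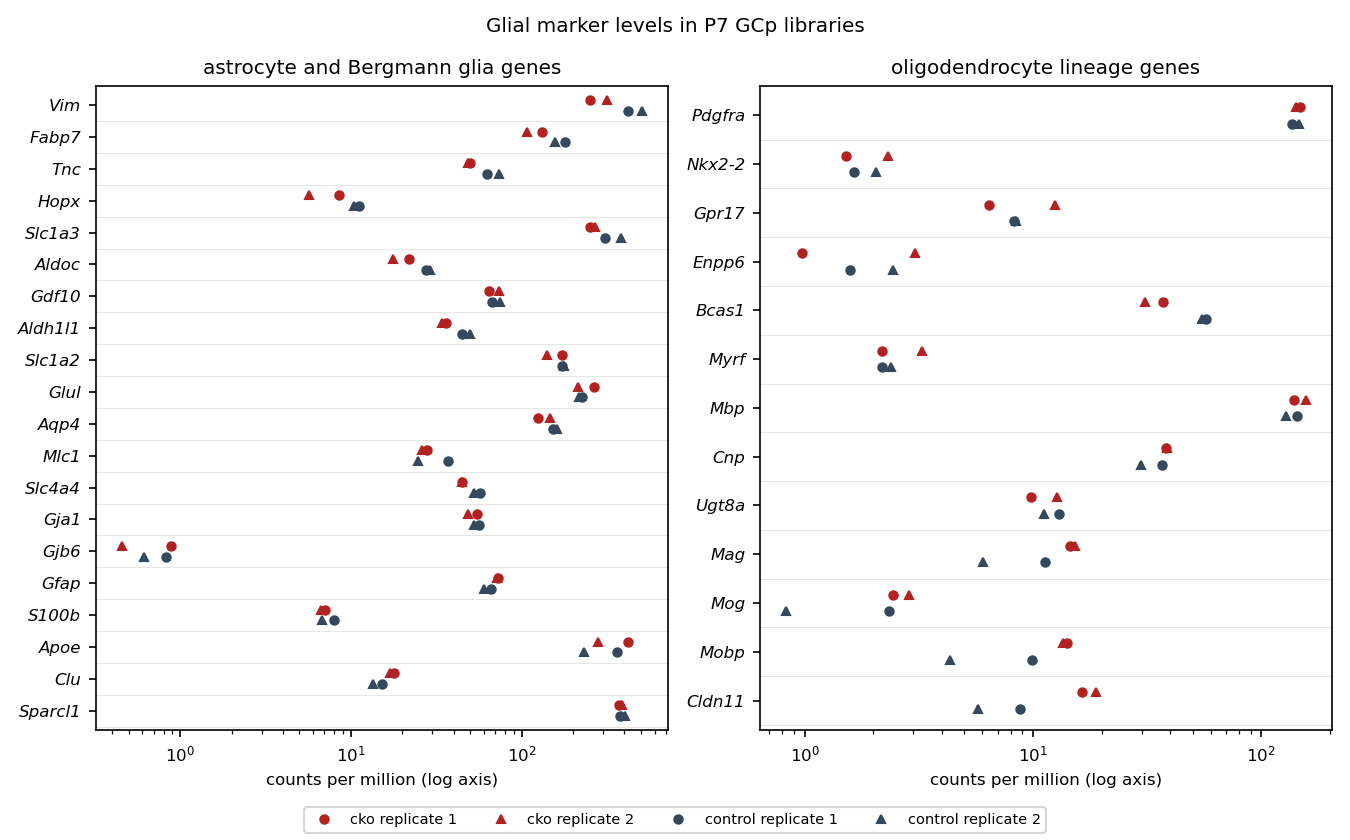
Level of each of the 33 glial genes in each library, in CPM on a log axis, with astrocyte and Bergmann glia genes on the left and oligodendrocyte lineage genes on the right. Circles are replicate 1 and triangles replicate 2, with the 2 cko libraries drawn above the 2 control libraries of each gene. Vim lies at 252 and 314 CPM in the cko and 417 and 506 CPM in the control, and Pdgfra lies between 136 and 148 CPM in all 4 libraries.

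In edgeR's quasi-likelihood test with Benjamini-Hochberg adjustment over all genes, 1 of the 33 glial genes fell in the cko and 0 rose. The 1 gene was Bcas1, listed with the oligodendrocyte lineage genes. Of the 16436 genes tested, 1.58% passed in either direction, made up of 0.773% lower and 0.809% higher. At an unadjusted p under 0.05, 9 of the 33 were lower and 2 were higher, against 6.21% and 7.36% of all genes. DESeq2 called 6 lower and 1 higher, where it called 5.81% of the 15161 genes to which it gave an adjusted p. In CPM, both cko libraries lay below both control libraries for 11 of the 33 genes, against 21.2% of all genes, and above both for 7, against 22.7%, so that the genotypes did not overlap for 18 of 33 genes and for 43.9% of all genes. The median log2 fold change was -0.18 over the astrocyte and Bergmann glia genes and 0.183 over the oligodendrocyte lineage genes, beside -0.001 over all genes tested. The 2 gene sets had medians of opposite sign. The oligodendrocyte median ran between 0.03 and 0.527 when 1 library was left out, at 0.03 without cko replicate 2 and 0.527 without cko replicate 1.

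**Figure D2:**
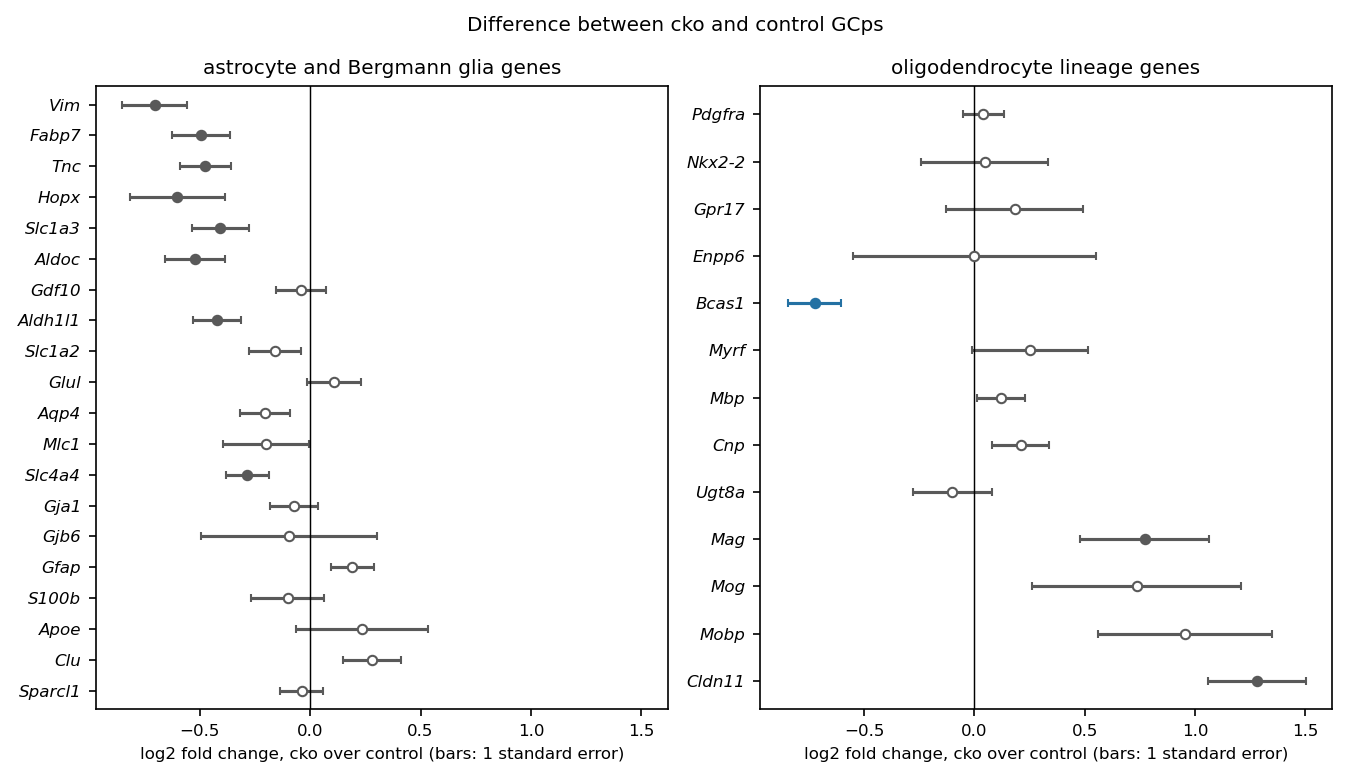
Log2 fold change, cko over control, for each glial gene from edgeR's fit, with bars of 1 standard error. The filled blue point is Bcas1, the 1 gene past an adjusted p of 0.05; filled grey points passed an unadjusted p of 0.05 and open points did not. 16 of the 20 astrocyte and Bergmann glia genes lie below 0, and 10 of the 13 oligodendrocyte lineage genes lie above it.

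None of the 20 astrocyte and Bergmann glia genes passed the adjusted threshold in edgeR's test, while 8 were lower and 0 were higher at an unadjusted p under 0.05, and DESeq2 called 5 of them lower, namely Aldh1l1, Aldoc, Fabp7, Tnc and Vim. Over all genes tested, 6.21% were lower and 7.36% higher at that unadjusted p. Both cko libraries lay below both control libraries for 10 of the 20 and above them for 2, against 21.2% and 22.7% of all genes tested. Among the lower genes were 5 that neural progenitors share with glia. All 5, Vim, Fabp7, Tnc, Hopx and Slc1a3, were lower at an unadjusted p under 0.05, with a median log2 fold change of -0.494 and a summed level of 200 and 193 RPKM in the cko, against 283 and 293 RPKM in the control. The 10 genes of mature astrocytes had a median of -0.131 and a summed level of 162 and 146 RPKM in the cko, against 161 and 154 RPKM in the control, with overlapping groups. The difference between these sets of genes was not tested. Nes and Sox2, further progenitor genes that were named after their values were seen, lay the other way. They were taken from the further astroglial list given below. Of its 24 tested genes, 16 lay below 0, among them Ptn at -0.96 and Ptprz1 at -0.38, and 8 lay above it. Nes, the intermediate filament nestin, had 38.8 and 35.3 CPM in the cko and 30.7 and 28.2 CPM in the control (log2 fold change 0.33, adjusted p = 0.255 by edgeR). Sox2, a transcription factor of neural stem cells, had 30.7 and 26.5 CPM in the cko and 23.8 and 24.7 CPM in the control (log2 fold change 0.24, adjusted p = 0.483 by edgeR). For each of the 2, the cko libraries lay above both controls, so genes that progenitors share with glia did not all lie on 1 side.

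Vim encodes vimentin, the intermediate filament of radial glia, which vascular cells and fibroblasts also make (GRCm38 chromosome 2, 13573927 to 13582826; positions below use the same build). It had 252 and 314 CPM in the cko and 417 and 506 CPM in the control. Both cko libraries lay well below both control libraries, although the libraries within each genotype also differed. The log2 fold change was -0.71 with a standard error (SE) of 0.15 and an adjusted p of 0.0881 in edgeR's test. With 1 library left out, the adjusted p was 0.164 without cko replicate 1, 0.0226 without cko replicate 2, 0.0542 without control replicate 1 and 0.341 without control replicate 2, with log2 fold changes between -0.87 and -0.55.

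Fabp7 encodes the brain lipid-binding protein of radial glia and Bergmann glia (chromosome 10, 57784881 to 57788450). It had 131 and 107 CPM in the cko and 179 and 156 CPM in the control, with no overlap. Its log2 fold change was -0.49 (SE 0.13, adjusted p = 0.143 by edgeR). Tnc, the matrix protein tenascin C, which radial glia secrete, had 49.8 and 48.3 CPM in the cko and 62.4 and 73.9 CPM in the control. The cko libraries lay close together and below both controls, and the log2 fold change was -0.48 (SE 0.11, adjusted p = 0.116 by edgeR).

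Hopx, a small homeodomain protein found in Bergmann glia and in their progenitors, had 8.47 and 5.69 CPM in the cko and 11.1 and 10.4 CPM in the control. The groups did not overlap, and the log2 fold change was -0.60 (SE 0.21, adjusted p = 0.272 by edgeR). It was -0.91 without cko replicate 1 and -0.35 without cko replicate 2. Of its exonic bases, 27.2% lie opposite exons of its antisense gene Hopxos, so without a stated strand setting the reads of the pair cannot be told apart. Slc1a3, the glutamate transporter GLAST of Bergmann glia, had 251 and 270 CPM in the cko and 308 and 384 CPM in the control. Its groups did not overlap either, with a log2 fold change of -0.41 (SE 0.13, adjusted p = 0.217 by edgeR), which was -0.24 without control replicate 2.

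Bergmann glia were also marked by Aldoc and Gdf10. Aldoc, the glycolytic enzyme aldolase C, which Purkinje cells also express, had 21.8 and 17.6 CPM in the cko and 27.6 and 29.1 CPM in the control. Both cko libraries lay below the controls, with a log2 fold change of -0.52 (SE 0.13, adjusted p = 0.134 by edgeR). Gdf10, a secreted protein of the BMP family that is among the most selective Bergmann glia markers, had 64.4 and 73.7 CPM in the cko and 67.3 and 75.01 CPM in the control. The groups overlapped, and the log2 fold change was -0.04 with an SE of 0.11. Of the 5 Bergmann glia genes, 4, namely Hopx, Aldoc, Fabp7 and Slc1a3, were lower at an unadjusted p under 0.05, and Gdf10 was not. Over all genes tested, 6.21% were lower at that p.

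Of the mature astrocyte genes, Aldh1l1, an enzyme of folate metabolism, had 35.9 and 34.3 CPM in the cko and 44.5 and 49.5 CPM in the control. Slc4a4, a sodium bicarbonate transporter, had 45.0 and 45.0 CPM in the cko and 56.8 and 52.8 CPM in the control. Neither gene overlapped between genotypes, and their adjusted p values by edgeR were 0.132 and 0.259, with log2 fold changes of -0.42 and -0.28. Aqp4, the water channel of astrocyte end feet, had 125 and 147 CPM in the cko and 152 and 162 CPM in the control, with a log2 fold change of -0.21 (SE 0.11, adjusted p = 0.520 by edgeR). Slc1a2, the glutamate transporter GLT-1, had 172 and 141 CPM in the cko and 173 and 176 CPM in the control, with a log2 fold change of -0.16 (SE 0.12). The cko libraries of both genes lay below the controls, for Slc1a2 by a narrow margin in replicate 1.

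The remaining mature astrocyte genes overlapped between the genotypes, except Gfap. Gfap, the intermediate filament that rises in reactive astrocytes, had 72.7 and 71.8 CPM in the cko and 66.2 and 60.4 CPM in the control. Gfap did not overlap and had a log2 fold change of 0.19 (SE 0.10, adjusted p = 0.489 by edgeR). Glul, glutamine synthetase, had 264 and 214 CPM in the cko and 226 and 217 CPM in the control, with overlapping groups. Gja1, the gap junction protein connexin 43, had 54.6 and 48.7 CPM in the cko and 56.3 and 52.3 CPM in the control, with overlapping groups and a log2 fold change of -0.07 (SE 0.11). Gjb6, connexin 30, had only 68 and 28 reads in the cko and 63 and 37 in the control, the fewest of the 33 genes, with overlapping groups and a log2 fold change of -0.10 (SE 0.40). S100b, a calcium-binding protein, and Mlc1, a membrane protein of astrocyte end feet, overlapped between genotypes, with log2 fold changes of -0.10 (SE 0.17) and -0.20 (SE 0.20).

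Sparcl1, Apoe and Clu are secreted by astrocytes and also made by other cells. Sparcl1 had 373 and 388 CPM in the cko and 378 and 405 CPM in the control, a log2 fold change of -0.04 with an SE of 0.10. Apoe had 418 and 280 CPM in the cko and 362 and 230 CPM in the control. The order of these values followed the replicate number first. Replicate 1 stood 1.49 times above replicate 2 in the cko and 1.57 times above it in the control. Within each replicate number, the cko value lay above the control value. The log2 fold change was 0.24 (SE 0.30, adjusted p = 0.833 by edgeR). With the replicate number as a block, it was 0.24 with an adjusted p of 0.117 by edgeR. Clu, the chaperone clusterin, had 17.9 and 16.9 CPM in the cko and 15.2 and 13.5 CPM in the control, with a log2 fold change of 0.28 (SE 0.13, adjusted p = 0.433 by edgeR) and no overlap.

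Of a further list of 25 astroglial genes, 24 were tested. Ptn fell and 0 rose by edgeR, and the median log2 fold change was -0.141. At an unadjusted p under 0.05, 8 were lower and 1 was higher, against 6.21% and 7.36% of all genes tested. Ptn encodes pleiotrophin, a growth factor that radial glia secrete, and it had 314 and 347 CPM in the cko and 726 and 558 CPM in the control. Both cko libraries lay far below the controls, with a log2 fold change of -0.96 (SE 0.15, adjusted p = 0.0380 by edgeR). The call was lost without cko replicate 1 (adjusted p = 0.101), without control replicate 1 (0.0707) and without robust estimation (0.0516). Among genes of the granule lineage, which share the tissue, Nhlh1 fell by edgeR (adjusted p = 0.0467, and 0.0685 without cko replicate 1) and 12 of 13 tested did not pass, with a median of -0.043 and a summed level of 1423 and 1833 RPKM in the cko, against 1814 and 1730 RPKM in the control. Of 12 endothelial genes, 8 were higher at an unadjusted p under 0.05 while Slco1a4 fell by edgeR (adjusted p = 0.0415, and 0.0810 without cko replicate 1), and the list summed to 418 and 429 CPM in the cko and 325 and 282 CPM in the control. Over all genes tested, 7.36% were higher and 6.21% lower at that unadjusted p. The mural cell genes summed to 163 and 222 CPM in the cko and 164 and 150 CPM in the control, with overlapping groups. The part of these cell types in the glial values was not tested.

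In the oligodendrocyte lineage, the 2 precursor genes overlapped between genotypes, the 4 genes of the committed stage overlapped except Bcas1, and 5 of 7 myelin genes lay higher in both cko libraries. At an unadjusted p under 0.05, 1 of the 13 genes was lower and 2 were higher, against 6.21% and 7.36% of all genes tested. Both cko libraries lay above both controls for 22.7% of all genes tested. Pdgfra, the receptor for the growth factor that keeps precursors dividing (chromosome 5, 75152292 to 75198215), had 148 and 142 CPM in the cko and 136 and 146 CPM in the control. Its groups overlapped, and the log2 fold change was 0.04 with an SE of 0.09. Meningeal fibroblasts also express Pdgfra. Nkx2-2, a transcription factor of precursors that start to differentiate, had 1.52 and 2.31 CPM in the cko and 1.64 and 2.06 CPM in the control, with overlapping groups and a log2 fold change of 0.05 (SE 0.29).

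Bcas1 marks oligodendrocytes that are newly forming myelin (chromosome 2, 170346991 to 170427845, minus strand). It had 37.2 and 30.8 CPM in the cko, 34.0 ± 4.47 CPM (SD, n = 2), and 57.0 and 55.3 CPM in the control, 56.2 ± 1.24 CPM (SD, n = 2). Both cko libraries lay well below both controls, by more than the spread within either genotype. The log2 fold change was -0.72 (SE 0.12, adjusted p = 0.0450 by edgeR), a level 39.5% lower in the cko. The call held without either cko library, at an adjusted p of 0.0236 without replicate 1 and with a log2 fold change between -0.86 and -0.60 over the 4 omissions. It was lost without control replicate 1 (0.0683), without control replicate 2 (0.155), without scaling factors (0.0911) and without robust estimation (0.0572). Of its exonic bases, 12.6% lie opposite exons of its antisense genes, whose reads cannot be told apart without a stated strand setting.

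The other genes of the committed stage did not pass the test. Gpr17, a receptor that precursors carry briefly as they commit, had 6.43 and 12.5 CPM in the cko and 8.22 and 8.42 CPM in the control. Enpp6, a choline-releasing enzyme of newly formed oligodendrocytes, had 0.973 and 3.06 CPM in the cko and 1.58 and 2.44 CPM in the control. Myrf, the transcription factor that switches on myelin genes, had 2.18 and 3.27 CPM in the cko and 2.18 and 2.39 CPM in the control. All 3 overlapped between genotypes, and for each the 2 cko libraries lay further apart than the 2 controls. Per length, Bcas1 stood 7.95 and 3.40 times above Gpr17 in the cko, against 9.54 and 9.04 times in the control, and 38.7 and 21.4 times above Myrf in the cko, against 59.3 and 52.5 times in the control. Against Enpp6, it stood 64.9 and 17.1 times above in the cko and 61.3 and 38.5 times above in the control, with overlapping groups. These ratios use the Bcas1 values already given and are a description. Whether cells outside the oligodendrocyte lineage added to the Bcas1 level was not tested.

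The myelin genes with the widest differences were Cldn11, Mobp, Mag and Mog. Cldn11, the tight junction protein of the myelin sheath (chromosome 3, 31149920 to 31164324), had 16.4 and 18.9 CPM in the cko and 8.77 and 5.73 CPM in the control. Both cko libraries lay above both controls, and the log2 fold change was 1.28 (SE 0.22, adjusted p = 0.0516 by edgeR). With each library left out in turn, the adjusted p ran between 0.00273, without control replicate 1, and 0.138. Cldn11 is also made by the arachnoid layer of the meninges. The list of 9 meningeal fibroblast genes summed to 103 and 92.6 CPM in the cko and 94.9 and 82.6 CPM in the control. These sums overlapped between genotypes, and the median log2 fold change was 0.054, with 5 genes above 0 and 4 below it. Igf2 was the most abundant of the 9, at 41.7 and 44.2 CPM in the cko and 27.7 and 31.2 CPM in the control.

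Mag, an adhesion protein of the innermost myelin wrap, had 14.5 and 15.3 CPM in the cko and 11.3 and 6.07 CPM in the control. Mobp, a basic protein of compact myelin, had 14.1 and 13.6 CPM in the cko and 9.91 and 4.33 CPM in the control. Mog, a glycoprotein on the outer surface of myelin, had 2.44 and 2.88 CPM in the cko and 2.34 and 0.829 CPM in the control. In all 3 the cko libraries lay close together, and control replicate 2 lay far below control replicate 1. The log2 fold changes were 0.77 for Mag (SE 0.29), 0.95 for Mobp (SE 0.39) and 0.74 for Mog (SE 0.47), with adjusted p values of 0.330, 0.398 and 0.608 by edgeR. The sizes depended on which control library was kept: without control replicate 2 they were 0.39 for Mag, 0.48 for Mobp and 0.18 for Mog, and without control replicate 1 they were 1.29, 1.67 and 1.68, with adjusted p values of 0.0152, 0.00299 and 0.0585.

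The other 3 myelin genes lay closer between genotypes. Mbp, myelin basic protein, had 139 and 157 CPM in the cko and 144 and 128 CPM in the control, with overlapping groups and a log2 fold change of 0.12 (SE 0.11). Cnp, an enzyme of non-compact myelin already made by precursors, had 38.2 and 38.6 CPM in the cko and 36.7 and 29.6 CPM in the control, with a log2 fold change of 0.21 (SE 0.13, adjusted p = 0.589 by edgeR). Ugt8a, which makes the myelin lipid galactosylceramide, had 9.79 and 12.7 CPM in the cko and 13.0 and 11.2 CPM in the control, with a log2 fold change of -0.10 (SE 0.18). Over the 7 myelin genes the summed level was 44.9 and 49.5 RPKM in the cko, against 40.2 and 31.4 RPKM in the control, and without Cldn11 it was 36.1 and 39.4 RPKM in the cko, against 35.5 and 28.4 RPKM in the control.

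**Figure D3:**
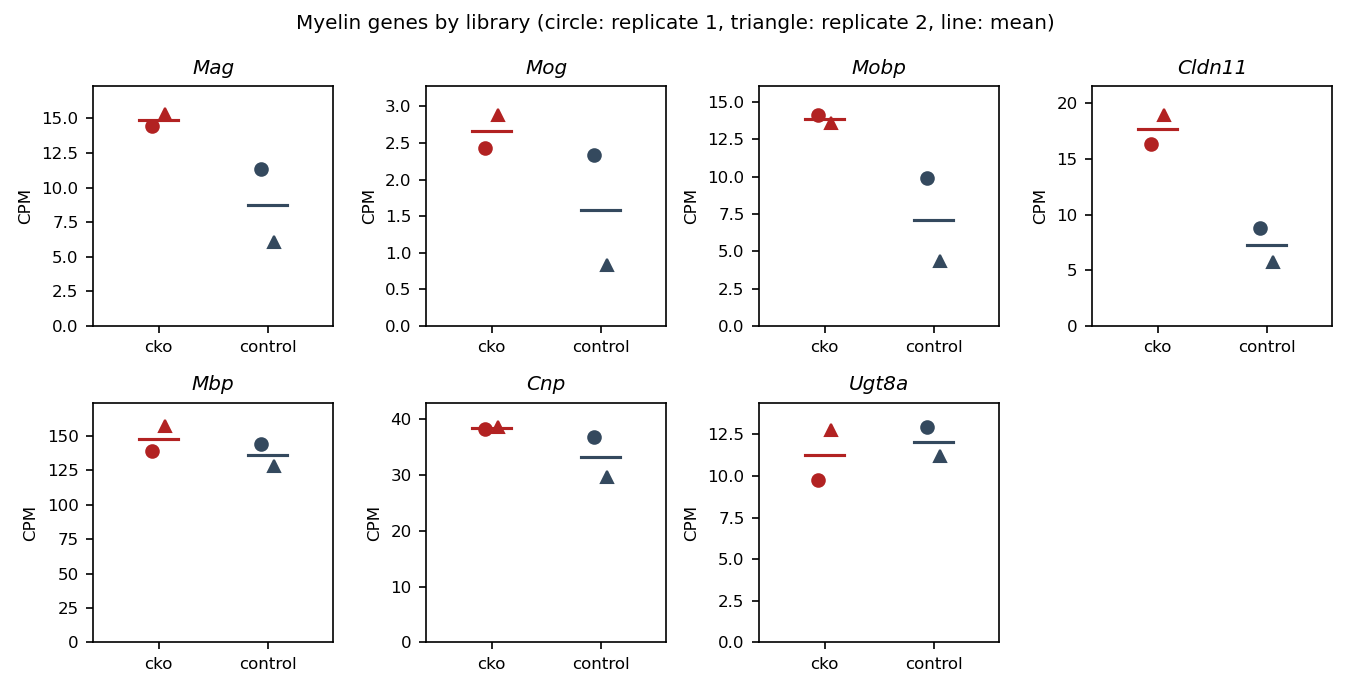
CPM of the 7 myelin genes in each library, with cko left of control, circles for replicate 1, triangles for replicate 2 and lines at the mean of the 2 libraries; every axis starts at 0. Control replicate 2 is lowest for Mag, Mog, Mobp and Cldn11, at 6.07, 0.829, 4.33 and 5.73 CPM.

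Of a further list of 25 oligodendrocyte lineage genes, 23 were tested, and Olig2 rose and 0 fell by edgeR. At an unadjusted p under 0.05, 3 were higher and 2 lower, against 7.36% and 6.21% of all genes tested. The median log2 fold change was 0.301. Olig2, the transcription factor that sets up the lineage, had 6.94 and 6.96 CPM in the cko and 2.66 and 3.36 CPM in the control. The cko libraries were nearly equal and above both controls, with a log2 fold change of 1.21 (SE 0.20, adjusted p = 0.0415 by edgeR). The call was lost without cko replicate 1 (0.0720), control replicate 1 (0.129), control replicate 2 (0.104) and robust estimation (0.0572). The next 5 genes were named after their values were seen. Myt1, a zinc finger factor of oligodendrocyte precursors and of new neurons, had 174 and 184 CPM in the cko and 265 and 254 CPM in the control, with a log2 fold change of -0.53 (adjusted p = 0.0512 by edgeR). Ppp1r14a, an inhibitor of myosin phosphatase that smooth muscle also carries, had 3.92 and 4.29 CPM in the cko and 12.5 and 6.23 CPM in the control, with a log2 fold change of -1.20 (adjusted p = 0.183 by edgeR). For these 2 genes the cko libraries lay below both controls. Leaving out cko replicate 2 gave Myt1 an adjusted p of 0.0338, and Ppp1r14a had a log2 fold change of -0.60 without control replicate 1 and -1.61, at an adjusted p of 0.0372, without control replicate 2. Mal, a lipid raft protein of myelin, had 4.08 and 4.29 CPM in the cko and 3.85 and 1.72 CPM in the control. Cspg4, the precursor proteoglycan NG2, which pericytes also carry, had 15.7 and 14.4 CPM in the cko and 9.10 and 10.3 CPM in the control, with a log2 fold change of 0.63 (adjusted p = 0.103 by edgeR). Sox10, which the whole lineage expresses, had 1.71 and 2.03 CPM in the cko and 1.74 and 1.29 CPM in the control, with overlapping groups.

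Markers of other cells that can hold the same genes were set beside the oligodendrocyte values. Of 4 Schwann cell genes, which share several myelin genes, 3 were tested and none passed by edgeR, with 0 at an unadjusted p under 0.05, and their summed level was 19.9 and 21.2 CPM in the cko and 19.1 and 19.3 CPM in the control. The mural cell genes, for the cells that share Cspg4, had the sums given above. Skeletal muscle genes stood apart: 4 of 10 rose by edgeR, against 0.809% of all genes tested. All 10 had both cko libraries above both controls, against 22.7% of all genes tested. The 10 genes summed to 33.7 and 68.5 CPM in the cko and 10.1 and 6.48 CPM in the control. The part of these cell types in the oligodendrocyte values was not tested.

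**Figure D4:**
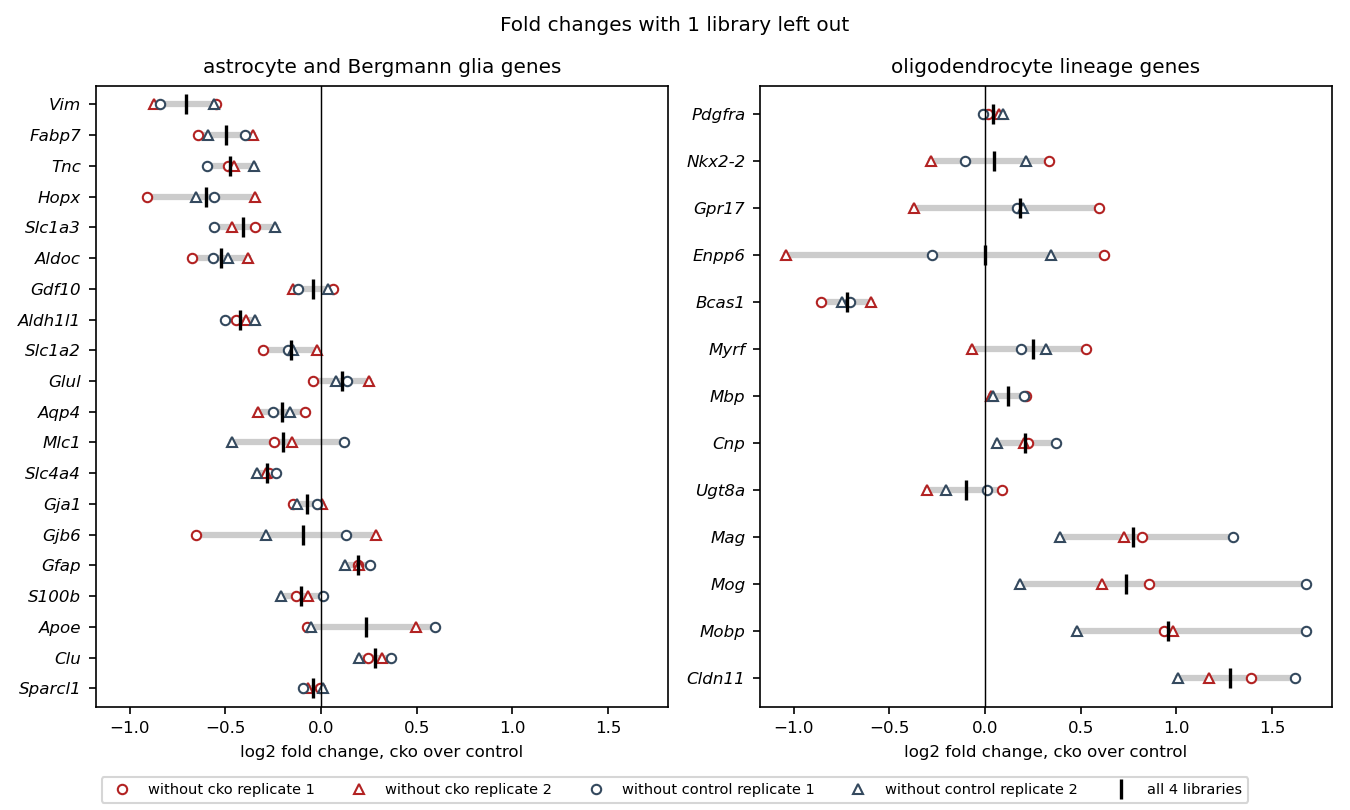
Log2 fold change, cko over control, for each glial gene with all 4 libraries (black bar) and with each library left out in turn (open symbols); the grey line spans the omissions. Bcas1 stays between -0.86 and -0.60, while Mobp spans 0.48 to 1.67 and Enpp6 spans -1.04 to 0.62.

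With each library left out in turn, 6 of the 7 genes that neural progenitors share with glia or that Bergmann glia carry stayed below 0, and Gdf10, at -0.14 to 0.06, was the exception. Aldh1l1 and Slc4a4 also stayed below 0, and Gfap and Clu stayed above it. Aqp4 and Slc1a2 stayed below 0 but came near it, Aqp4 at -0.084 without cko replicate 1 and Slc1a2 at -0.022 without cko replicate 2. In the oligodendrocyte lineage, Mag, Mog, Mobp and Cldn11 stayed above 0, as did Cnp, at 0.063 without control replicate 2, and Mbp, at 0.030 without cko replicate 2. The lone library of a genotype is assumed in these fits to vary like the others.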

How the data were processed

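RNA-seq read counts per gene for 2 cko and 2 control P7 GCp preparations were used. The deposited counts are whole-number reads per gene made by the authors; the submitters' processing notes list Trim Galore 0.4.1, TopHat2 2.0.14, HTSeq 0.6.1p1 and DESeq2 1.8.1 with Ensembl annotation 75. The strand setting of the counting: not given in the sources used here. IDs were named from GENCODE M21, which matched 37607 of 38924. Counts were fitted with edgeR 4.0.16 (limma 3.58.1, R 4.3.3): genes with a minimum count of 10 and a minimum total of 15 by filterByExpr, TMM factors, robust quasi-likelihood test, Benjamini-Hochberg adjustment over 16436 genes, threshold 0.05. CPM used TMM-scaled library sizes, and RPKM divided them by exon length. Median log2 fold change over all genes shifted by 0.05 without scaling factors. With 2 against 2 libraries an exact permutation test cannot go below p = 0.33, so none was run. Alternatives were RLE, no scaling, no filter, no robust estimation, DESeq2 1.42.0, a replicate block and omission of each library. The fit was tested on simulated counts. All 33 genes are named. Of each other list, the rule named up to 4 called genes, or the most abundant gene where none was called. Ptprz1, Pcp2, Calb1, Zic1 and Gabra6 were named outside this rule. So were the genes given above as named after their values were seen. The genes and lists were chosen with earlier results of these data known.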

Additional observations from a re-analysis of the deposited data

How the results depend on the processing

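Of 330 values for the 33 genes under the alternatives, 281 kept their direction and side of the threshold, 22 passed it newly, 4 lost it and 23 changed sign. The number called lower, 1, was 0 without scaling factors or robust estimation, 5 with no filter on low counts (Aldoc, Fabp7, Tnc, Vim, Bcas1) and 6 with DESeq2 (also Aldh1l1). Of these, 4 with no filter and 5 with DESeq2 were astrocyte and Bergmann glia genes. The number called higher, 0, was 1 (Cldn11) in both. Over all genes, calls numbered 260, against 727 (3.12%) with no filter, 881 with DESeq2, 1010 (6.15%) with the block, and 712 without cko replicate 2 and 115 without control replicate 2. With the replicate number as a block, 7 glial genes were lower, 6 of them astrocyte and Bergmann glia genes, and 1 was higher, and the choroid plexus gene Ttr turned to -0.14; deviations of same-numbered libraries correlated at 0.187 over 16436 genes, and some genes followed the number in both genotypes, but no source says what the numbers mark and 2 pairs are too few to take them as pairs. Leaving out 1 library gave 0 to 2 genes lower and 0 to 3 higher, the 3 (Mag, Mobp, Cldn11) without control replicate 1; 0 to 1 astrocyte and Bergmann glia gene and 0 to 1 oligodendrocyte gene were lower. Medians then ran from -0.259, without cko replicate 1, to -0.148 for the astrocyte and Bergmann glia genes. For the oligodendrocyte lineage genes they ran from 0.03 to 0.527. Without scaling, the median of all 33 was 0.004, and Gdf10 (0.0036), Sparcl1 (0.0092) and Enpp6 (0.030) turned above 0. Ranges that crossed 0 when 1 library was left out were -0.14 to 0.060 for Gdf10, -0.091 to 0.011 for Sparcl1, -0.21 to 0.0081 for S100b, -0.043 to 0.25 for Glul, -0.15 to 0.0060 for Gja1, -0.65 to 0.29 for Gjb6, -0.072 to 0.59 for Apoe, -0.47 to 0.12 for Mlc1, -0.012 to 0.092 for Pdgfra, -0.28 to 0.33 for Nkx2-2, -0.30 to 0.088 for Ugt8a, -1.04 to 0.62 for Enpp6, -0.37 to 0.59 for Gpr17, -0.068 to 0.53 for Myrf, -3.44 to 2.54 for Ttr, -0.038 to 0.30 for Pmp22 and -0.12 to 0.49 for Hbb-bs. Ends that came without cko replicate 1 included 0.060 for Gdf10, -0.043 for Glul and -0.072 for Apoe. They also included -0.65 for Gjb6, -0.15 for Gja1 and 0.33 for Nkx2-2. The cause of these changes was not tested. RLE changed no call among the 33 genes and called 259 genes in all. Gjb6 had the fewest reads, 28 to 68 a library.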

Other observations

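Genes of other cell types were measured in the same libraries. Of 12 endothelial genes, Slco1a4, a transporter of the blood-brain barrier, fell by edgeR, with 3.75 and 4.68 CPM in the cko and 10.3 and 8.78 CPM in the control (log2 fold change -1.18, adjusted p = 0.0415), while the median of the list was 0.465. Nhlh1, a transcription factor of granule cells leaving the cycle, fell, with 178 and 172 CPM in the cko and 280 and 249 CPM in the control (log2 fold change -0.60, adjusted p = 0.0467 by edgeR). The muscle genes that rose by edgeR were Actn2, Ckm, Myh3 and Tnnt3, with log2 fold changes of 3.11, 4.23, 2.79 and 2.48 and adjusted p values of 0.0362, 0.0380, 0.0395 and 0.0409. With 1 library left out, the highest adjusted p was 0.108 for Slco1a4, 0.237 for Nhlh1 and 0.148 for Ckm among the muscle genes, so none of these calls held in every omission. No gene passed by edgeR in the mural, microglia, meningeal, choroid plexus, Purkinje, interneuron, Schwann cell or erythroid lists. These held 8, 10, 9, 5, 6, 6, 3 and 4 tested genes, in that order. At an unadjusted p under 0.05, 6 of them were higher and 0 lower, against 7.36% and 6.21% of all genes tested. The microglial gene Csf1r had 91.8 and 90.5 CPM in the cko and 84.2 and 67.4 CPM in the control, and the median over 10 microglia and macrophage genes was 0.006. The pericyte gene Rgs5 had 107 and 151 CPM in the cko and 110 and 100 CPM in the control, and the meningeal gene Igf2 had 41.7 and 44.2 CPM in the cko and 27.7 and 31.2 CPM in the control (adjusted p = 0.0806 by edgeR). Among neurons, Itpr1, listed with the Purkinje genes, had 43.1 and 36.3 CPM in the cko and 28.3 and 27.0 CPM in the control. Its adjusted p was 0.111 by edgeR. Of the 6 Purkinje genes tested, 4 lay above 0 and 2 below it, with a median log2 fold change of 0.175. Pcp2 and Calb1 of that list were at most 0.196 and 1.22 CPM in any library. Whether Purkinje cells gave the Itpr1 reads was not tested. Lhx5 of interneurons had 35.3 and 40.4 CPM in the cko and 28.1 and 35.8 CPM in the control. Pmp22, carried by Schwann cells, had 9.38 and 11.7 CPM in the cko and 8.69 and 10.6 CPM in the control, and the erythroid gene Hbb-bs had 15.5 and 11.4 CPM in the cko and 14.6 and 9.56 CPM in the control.

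The choroid plexus gene Ttr followed the replicate number, with 29.9 and 0.943 CPM in cko replicates 1 and 2 and 17.9 and 2.64 CPM in control replicates 1 and 2. The mitochondrial share of counts was 1.86% and 3.80% in the cko and 2.14% and 3.41% in the control, higher in replicate 2 of both genotypes.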
